A study of Mus musculus with 12 samples.

Results

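The receptors and ligands through which the GDNF family and the ciliary neurotrophic factor family reach spinal neurons were examined in cords of mice that carry a neuropathy deletion in Gars. The 10 genes were taken by symbol and each matched 1 row of the 38924 genes in the tables: the co-receptor genes Gfra1, Gfra2, Gfra3 and Gfra4, the shared kinase gene Ret, the ligand genes Gdnf, Nrtn and Artn, and the cytokine receptor genes Cntfr and Lifr. They were named for their role in motor neuron survival, and 9 of the 10 passed the filter on low counts; Gfra3 did not.

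Polyadenylated RNA of the cord was sequenced from 12 mice aged 8 weeks on a mixed B6J;FVB background. The 6 ETAQ/+ mice (3 females, 3 males; labelled ETAQ+/-) are heterozygous for a deletion, named ETAQ after the amino acids it removes, in Gars, which encodes glycyl-tRNA synthetase. The 6 WT mice (3 females, 3 males) are labelled ETAQ+/+. Both groups share strain background, age and tissue, and the labels name no transgene, Cre or other treatment.

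GDNF, neurturin, artemin and persephin are secreted proteins that bind GPI-anchored co-receptors, GFRα1 to GFRα4 in that order of preference, and the ligand-bound co-receptor then activates the tyrosine kinase RET. CNTF uses a like arrangement, in which the anchored receptor CNTFRα joins LIFR and gp130 (Il6st), and the associated JAK kinases phosphorylate STAT3. In the cord, RET and CNTFRα are well known in motor neurons, and GDNF and CNTF are classic survival factors for these cells.

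The main quantities are normalised CPM (expected read counts scaled by library total and by a trimmed-mean factor; CPM below) and TPM, which also divides by transcript length. The libraries held 23595944 to 41452700 expected counts. A count of 0 allows up to 3 counts, or 0.0730 to 0.129 CPM by library, as far as counting error goes. Libraries separated by mouse number (edgeR, adjusted p under 0.05). All 7 Schwann cell, all 5 red cell, all 7 skeletal muscle and all 8 neutrophil markers tested were higher in mice 1 to 6 than in mice 7 to 12. Summed red cell TPM was 7062 to 13163 against 558 to 1128. Also higher in mice 1 to 6 were 6 of 7 fibroblast, 2 of 8 astrocyte and 1 of 7 endothelial markers, and 1 of 6 pan-neuronal markers was lower. Over all genes 7.89% differed between the mouse sets at that threshold. Each mouse set holds 3 mice of each genotype, but all 3 WT mice of the first are male and all 3 of the second are female, so sex and set largely coincide. What the sets stand for is not in the labels. Gars itself was at 145 ± 5.79 CPM in ETAQ/+ and 127 ± 4.95 CPM in WT cords (SD, n = 6 each), without overlap; these counts do not separate the alleles and so do not check the genotype labels. As a check on the tissue, oligodendrocyte markers summed to 22986 to 30671 TPM in ETAQ/+ and 24181 to 26781 TPM in WT libraries.

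By length-scaled level Ret, Gfra1, Gfra2 and Gfra4 stood far above the ligand genes Gdnf, Nrtn and Artn. Cntfr was the most abundant, at a level of 67.3 ± 3.72 TPM (SD over 12 mice), followed by Gfra1 at 45.0 ± 6.28, Ret at 33.0 ± 2.27, Gfra4 at 25.1 ± 2.0, Lifr at 22.1 ± 1.99 and Gfra2 at 13.5 ± 1.52 TPM. The ligand genes were low, with Nrtn at 2.01 ± 0.759, Artn at 0.480 ± 0.264 and Gdnf at 0.148 ± 0.0494 TPM, and Gfra3, the artemin co-receptor gene, was at 0.208 ± 0.0715 TPM. In this order each gene lay above the next in all 12 mice, with 3 exceptions: Gfra4 exceeded Lifr in 10 mice, Artn exceeded Gfra3 in 11, and Gfra3 exceeded Gdnf in 8. The order within these 3 neighbouring pairs was not tested.

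**Figure D1:**
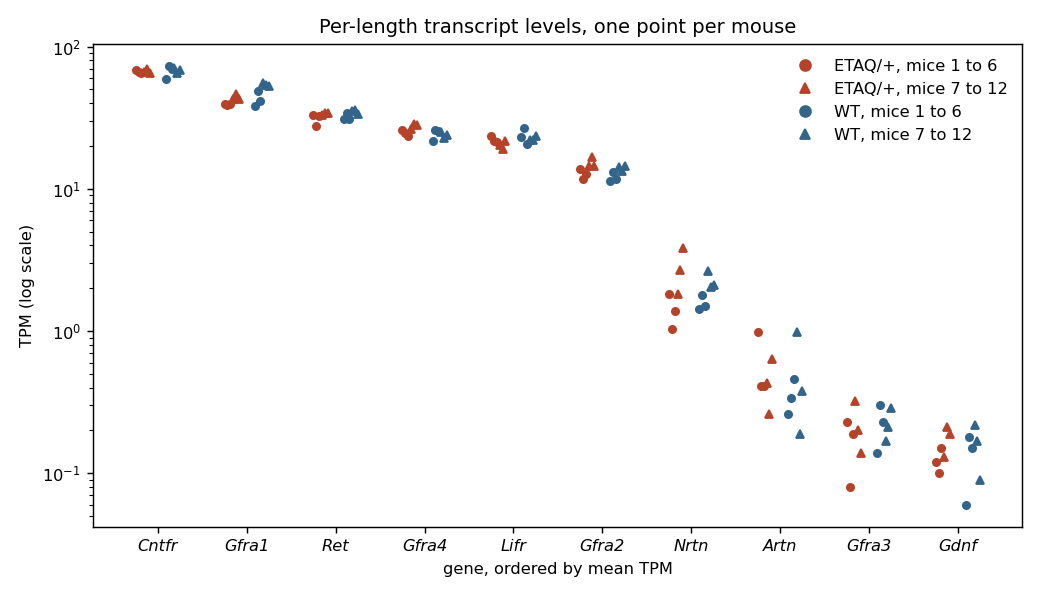
Levels of the 10 genes in TPM on a log axis, one point per mouse, ordered by mean, with ETAQ/+ (red) left of WT (blue) and circles for mice 1 to 6, triangles for mice 7 to 12. Cntfr leads at 67.3 TPM and Gdnf is lowest at 0.148 TPM, with the 6 upper receptor genes at 11.3 TPM or more and the 3 ligand genes at 3.86 TPM or less in every mouse.

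Gfra1, the GDNF co-receptor gene, was lower in ETAQ/+ cords. Its level was 76.5, 78.5 and 82.2 CPM (lowest, median and highest) in the 6 ETAQ/+ mice, against 85.1, 93.6 and 100.5 CPM in the 6 WT mice. Every ETAQ/+ mouse lay below every WT mouse; WT mouse 2 was the lowest of its group and WT mouse 7 the highest. The means were 79.2 ± 2.43 CPM in ETAQ/+ and 93.2 ± 5.46 CPM in WT (SD, n = 6 each), a log2 fold change of -0.23 ± 0.04 (SE; 95% interval -0.31 to -0.16) with an adjusted p of 0.00173 in edgeR's quasi-likelihood test over 17189 genes. Counts per library were 1843 to 2585 in ETAQ/+ and 2452 to 3676 in WT, so counting error is small beside the difference. Gfra1 (ENSMUSG00000025089) spans chr19:58235604-58455909 on the minus strand of GRCm38; 6.17% of its 75-base sequences recur in other genes' transcripts and 7.6% of its exon bases lie opposite Gm16277, and the strand setting of the counting is not given in the sources used here.

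Gfra1 was the 1 gene called of the 9 tested, with none higher and 1 lower. Over all genes 1.92% were called, 1.34% lower and 0.582% higher, and normalised CPM lay lower in all ETAQ/+ than in all WT mice for 1.35% of genes. A single call among 9 genes is a result about Gfra1, and nothing is read from it about the family. The median log2 fold change over the 9 genes was 0.04, against 0.00 over all genes. At an unadjusted p under 0.05 there were 3 of the 9 (Gfra1, Ret and Lifr, all lower), against 10.9% of all genes.

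The call held in each of 12 fits that left out 1 mouse (log2 fold change -0.26 to -0.22, adjusted p 0.000970 to 0.00905), and with mouse set as a covariate (-0.23 ± 0.03, adjusted p = 0.000214, edgeR). On the deposited TPM values, tested with limma on log2(TPM + 0.1), the difference was -0.21 with an adjusted p of 0.349, or 0.165 with mouse set added, and Gfra1 was not called. In TPM the groups overlapped, at 38.7 to 46.2 in ETAQ/+ and 38.2 to 55.6 in WT, where WT mouse 2 had the lowest value of all 12 and WT mouse 4, at 41.6, also lay in the ETAQ/+ range. In mice 7 to 12 the TPM values were 42.8, 42.8 and 46.2 in ETAQ/+, against 53.1, 53.6 and 55.6 in WT, while in mice 1 to 6 they were 38.7, 39.3 and 39.7 in ETAQ/+, against 38.2, 41.6 and 48.6 in WT. The transcript length that TPM divides by was itself an estimate for Gfra1, 3198 to 3741 bases by library, and its part in the result was not tested.

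**Figure D2:**
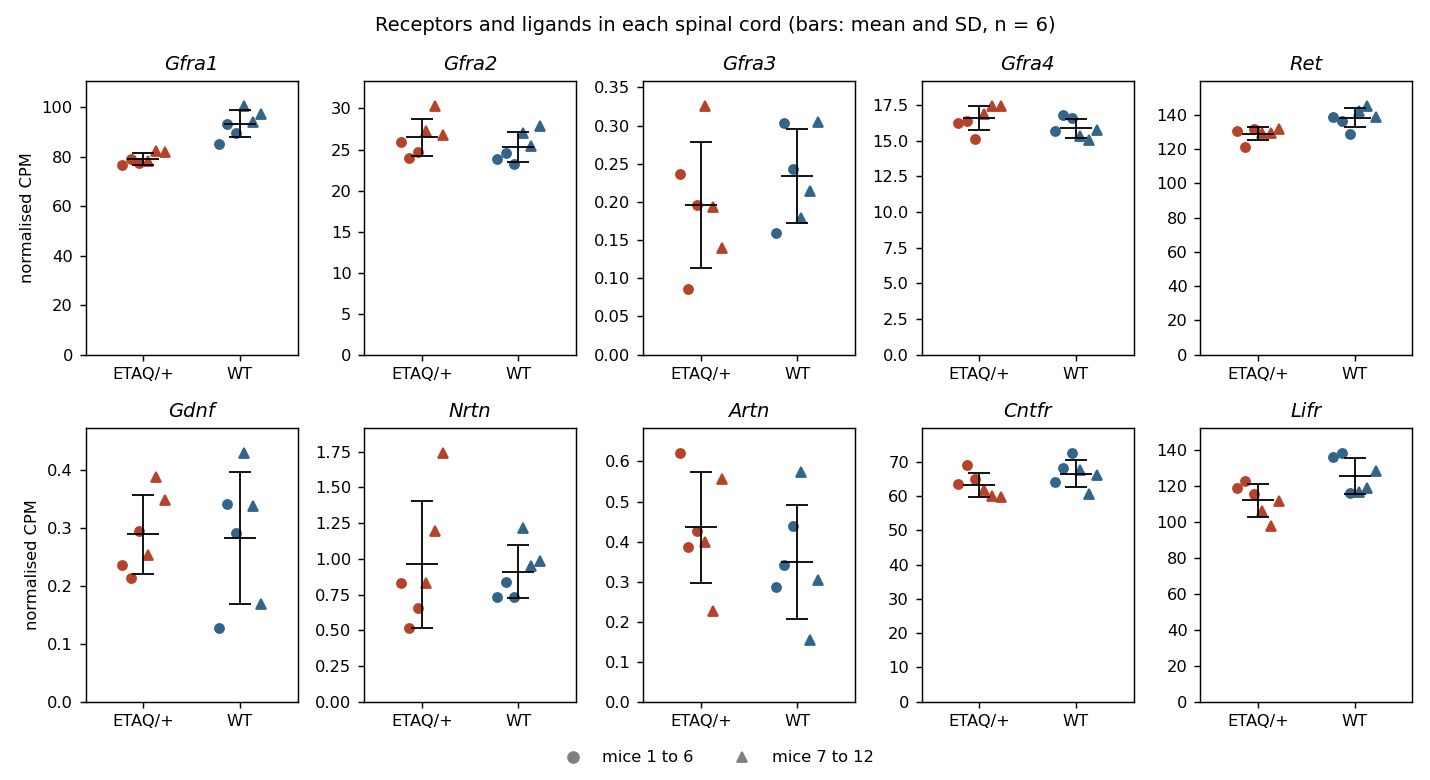
Normalised CPM of each gene in the 6 ETAQ/+ mice (red, left) and the 6 WT mice (blue, right), each axis from 0; circles are mice 1 to 6, triangles mice 7 to 12, bars mean and SD. The Gfra1 values of 76.5 to 82.2 CPM in ETAQ/+ lie wholly below the 85.1 to 100.5 CPM in WT, and the groups overlap in the other 9 panels.

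Within each sex and each mouse set the Gfra1 difference kept its direction. In females it was -0.30 ± 0.05 (adjusted p = 0.00560, edgeR; 0.739% of genes called) and in males -0.17 ± 0.05 (adjusted p = 0.188; 0.669% called). In mice 7 to 12 it was -0.28 ± 0.04 (adjusted p = 0.00584; 0.937% called) and in mice 1 to 6 -0.19 ± 0.04 (adjusted p = 0.0822; 0.803% called). The test of the difference between the sexes (female minus male) gave -0.13 ± 0.06, with an adjusted p of 0.902 in edgeR. The test between the sets (mice 1 to 6 minus mice 7 to 12) gave 0.09 ± 0.07, with an adjusted p of 0.995 in edgeR. Of the 9 genes, 0 were called for either difference (0% of all genes); at an unadjusted p under 0.05 there were 0 by sex, against 4.96% of all genes, and 1 by set, Gfra4, against 3.97%. In males and in mice 1 to 6 the 0 calls stood beside 1 gene each at an unadjusted p under 0.05, Gfra1, against 8.65% and 8.89% of all genes. With 3 mice of a genotype in each subset and sex tied to set, a smaller effect in males and a smaller effect in mice 1 to 6 cannot be told apart.

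The other co-receptor genes were not called. Gfra2, the neurturin co-receptor gene, was at 23.9, 26.4 and 30.3 CPM (lowest, median and highest) in ETAQ/+, against 23.2, 25.0 and 27.9 CPM in WT, and the groups overlapped almost wholly (0.06 ± 0.05, 95% interval -0.04 to 0.16, adjusted p = 0.704, edgeR). Gfra4, the persephin co-receptor gene, was at 15.1, 16.7 and 17.4 CPM in ETAQ/+, against 15.1, 15.7 and 16.8 CPM in WT, with overlap (0.07 ± 0.05, interval -0.04 to 0.17, adjusted p = 0.725). Its 3 ETAQ/+ values in mice 7 to 12, 16.9 to 17.4 CPM, stood above the 3 WT values there, 15.1 to 15.7 CPM, yet the difference in that set was not called (0.17 ± 0.07, adjusted p = 0.387) and in mice 1 to 6 it was -0.04 ± 0.07. For both genes the intervals leave out a change of the size seen for Gfra1.

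Gfra3 was barely detected, with 2 to 9 counts per library in ETAQ/+ (35 in all) and 5 to 10 in WT (44 in all). It failed the filter, and a fit without the filter gave -0.26 ± 0.35 (adjusted p = 0.860 over 25902 genes, edgeR). Sensory ganglion neurons are the known site of this co-receptor. A difference in Gfra3 was not detectable at this depth.

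Ret, the kinase through which all 4 co-receptors signal, was slightly lower in most ETAQ/+ cords but did not pass the test. Its level was 121, 130 and 132 CPM (lowest, median and highest) in ETAQ/+, against 129, 139 and 145 CPM in WT. The groups overlapped through WT mouse 4 at 129 CPM, and ETAQ/+ mouse 5, at 121 CPM, stood below the rest of its group. The means of 129 ± 3.96 CPM in ETAQ/+ and 138 ± 5.63 CPM in WT gave -0.10 ± 0.03 (interval -0.16 to -0.03, unadjusted p = 0.00562, adjusted p = 0.157, edgeR). It was negative in females (-0.13 ± 0.04, adjusted p = 0.343) and males (-0.07 ± 0.04, adjusted p = 0.705), in mice 7 to 12 (-0.12 ± 0.04, adjusted p = 0.352) and mice 1 to 6 (-0.07 ± 0.04, adjusted p = 0.689). Ret lies on the chromosome that carries Gars, 63.1 Mb away (chr6:118151745-118197718, GRCm38).

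The ligand genes had low counts, Gdnf and Artn lower than Nrtn. Nrtn, the neurturin gene, had 12 to 50 counts per library in ETAQ/+ and 22 to 34 in WT, at 0.514, 0.830 and 1.74 CPM (lowest, median and highest) in ETAQ/+, against 0.730, 0.893 and 1.22 CPM in WT. The ETAQ/+ values enclosed the WT values, and the highest came from ETAQ/+ mouse 11. Artn summed to 77 counts in ETAQ/+ and 66 in WT, and Gdnf, the founding ligand of the family, summed to 51 counts in ETAQ/+ and 53 in WT. Per library, Artn was at 0.226 to 0.621 CPM in ETAQ/+ and 0.153 to 0.573 CPM in WT, and Gdnf at 0.214 to 0.388 CPM in ETAQ/+ and 0.127 to 0.430 CPM in WT, so both genes overlapped broadly. The log2 fold change of Nrtn was 0.10 ± 0.26 (interval -0.46 to 0.67, adjusted p = 0.942, edgeR). That of Artn, the artemin gene, was 0.32 ± 0.32 (interval -0.36 to 1.01, adjusted p = 0.805), and that of Gdnf 0.04 ± 0.31 (interval -0.63 to 0.71, adjusted p = 0.982). These intervals are wide enough to hold a change as large as that of Gfra1 in either direction, so such a change was not detectable at this depth.

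Nrtn was the 1 gene of the 9 called for a difference between the mouse sets, and 3 had an unadjusted p under 0.05 (Nrtn, Gfra1 and Gfra2), against 21.9% of all genes. It was at 0.716 ± 0.120 CPM in mice 1 to 6 and 1.15 ± 0.323 CPM in mice 7 to 12 (SD, n = 6 each), a difference of -0.85 ± 0.24 (adjusted p = 0.0442, edgeR, sex and genotype as covariates). Over all genes 7.89% were called for the set, and 2.96% were lower in mice 1 to 6, so nothing is read from 1 call of 9 about the family. For sex, 0 of the 9 genes were called by edgeR and 1 had an unadjusted p under 0.05, Gfra2 at 0.16 ± 0.05 (female minus male, adjusted p = 0.183), against 0.0931% of genes called and 16.8% at the unadjusted threshold. With set as a covariate the Gfra2 sex difference was 0.08 ± 0.06.

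By TPM the cytokine receptor genes Cntfr and Lifr ranked 1 and 5 of the 10, and neither was called. In CPM, which does not divide by length, Lifr lay above Cntfr. Lifr, the signalling receptor shared by LIF and CNTF, was at 97.6, 114 and 123 CPM (lowest, median and highest) in ETAQ/+, against 116, 124 and 138 CPM in WT. ETAQ/+ mice 8, 9, 11 and 6 lay below every WT mouse and the other two within the WT range. The log2 fold change was -0.17 ± 0.05 (interval -0.28 to -0.05, unadjusted p = 0.00813, adjusted p = 0.196, edgeR), or -0.17 ± 0.05 with an adjusted p of 0.0978 once mouse set was added. It was -0.17 ± 0.08 in females and -0.16 ± 0.08 in males, and -0.23 ± 0.07 in mice 7 to 12 and -0.11 ± 0.07 in mice 1 to 6, none of them called. Cntfr, the CNTF-binding subunit, was at 59.8, 62.7 and 69.1 CPM in ETAQ/+, against 60.7, 66.9 and 72.6 CPM in WT, with broad overlap (-0.08 ± 0.04, interval -0.16 to 0.01, adjusted p = 0.571).

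**Figure D3:**
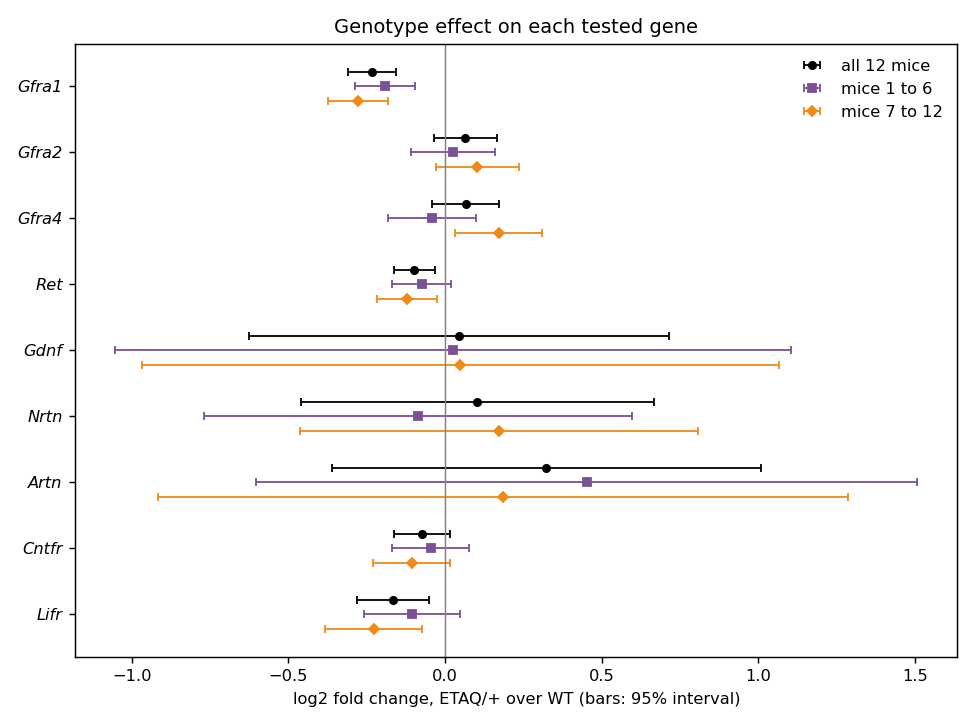
Log2 fold change of ETAQ/+ over WT with its 95% interval for each gene tested, from edgeR, over all 12 mice (black) and within mice 1 to 6 (purple) and mice 7 to 12 (orange). Over all mice Gfra1 is the 1 gene called, at -0.23; Ret and Lifr lie at -0.10 and -0.17 with intervals below 0 that did not pass the adjusted threshold, and the 3 ligand genes have the widest intervals.

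Motor neuron genes fell in the same cords. Chat, which makes acetylcholine and marks motor neurons and other cholinergic cells, was at 15.8 ± 0.978 CPM in ETAQ/+ and 24.6 ± 1.12 CPM in WT (SD, n = 6 each; -0.64 ± 0.05, adjusted p = 2.62e-06, edgeR). Of 11 motor neuron and cholinergic markers tested, 6 fell and 0 rose (Chat, Prph, Calca, Calcb, Chodl and Slc10a4). Over all genes edgeR called 1.34% lower and 0.582% higher, and 10.9% had an unadjusted p under 0.05. The summed level of the list was 245 to 279 TPM in ETAQ/+ and 355 to 398 TPM in WT. The markers Mnx1, Isl1, Isl2, Ache and Slc5a7 were not called in edgeR or limma-voom, and DESeq2 called Slc5a7 in addition to the 6. The share of all genes that DESeq2 called is not given here, so nothing is read from the added call. Of 10 gamma motor neuron markers 0 were called in edgeR, DESeq2 or limma-voom (2 at an unadjusted p under 0.05 in edgeR), and they summed to 96.2 to 114 TPM in ETAQ/+ and 90.1 to 114 TPM in WT. In bulk cord, fewer cells of a type and less RNA per cell cannot be told apart.

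Gfra1 and Ret were also set against Chat within each cord. The log2 ratio of Gfra1 to Chat was 2.33 ± 0.128 in ETAQ/+ and 1.92 ± 0.135 in WT (SD, n = 6 each), a difference of 0.41 without overlap. The log2 ratio of Ret to Chat was 3.04 ± 0.0929 in ETAQ/+ and 2.49 ± 0.0910 in WT, a difference of 0.55, again without overlap. Each gave p = 0.00217 in a two-sided exact permutation test, the smallest that 924 assignments can give, and 0.00325 adjusted over the 3 ratios tested. Chat itself lay lower in every ETAQ/+ mouse than in every WT mouse, so both ratios carry its fall. These p-values are thus no separate support for a change of Gfra1 or Ret, and Ret itself was not called. The ratios show only that both genes fell less than Chat or did not fall. Gfra1 in turn fell relative to Ret: their log2 ratio was -0.71 ± 0.0626 in ETAQ/+ and -0.57 ± 0.0786 in WT, a difference of -0.14 (exact permutation p = 0.0152, also after adjustment), with groups that overlapped. Both genes and Chat were read in whole cord, and how much of each receptor's RNA comes from motor neurons was not tested.

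**Figure D4:**
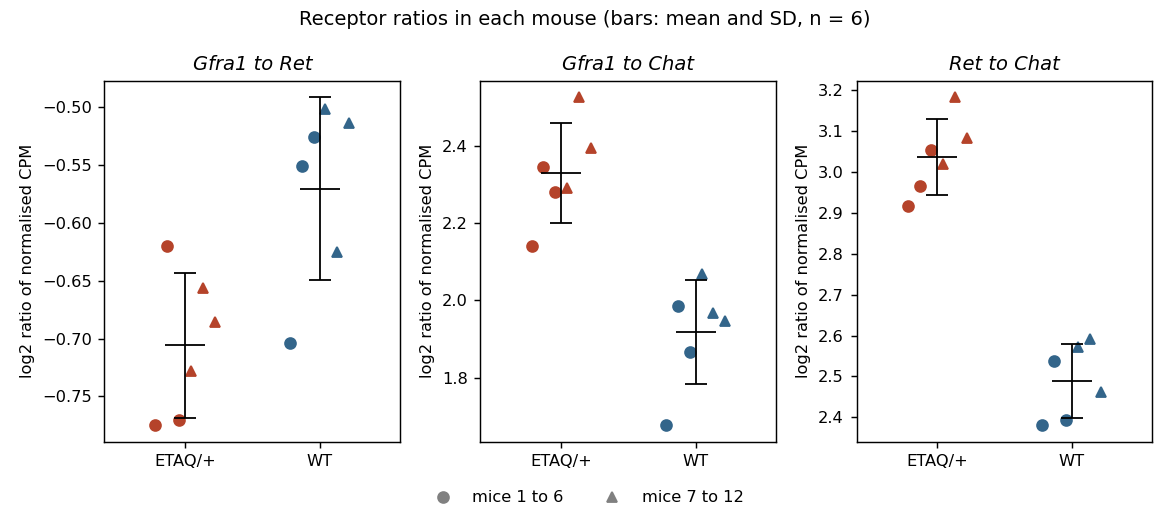
Log2 ratios of normalised CPM in each mouse, ETAQ/+ left of WT in each panel, with mean and SD. Gfra1 to Chat and Ret to Chat lie higher in all 6 ETAQ/+ mice than in all 6 WT mice (differences 0.41 and 0.55), and Gfra1 to Ret is lower by 0.14 on average with overlap.

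Markers of some other cell types also moved with genotype. Of 8 astrocyte markers 1 rose, Slc1a3 (0.19 ± 0.04, adjusted p = 0.0141, edgeR), and their summed level was 2623 to 2973 TPM in ETAQ/+ and 2272 to 2568 TPM in WT. Slc1a3 was a small part of that sum, at 62.5 to 73.4 TPM in ETAQ/+ and 52.5 to 61.2 TPM in WT. The largest part was Gfap, at 1304 to 1652 TPM in ETAQ/+ and 1019 to 1292 TPM in WT, which edgeR did not call (adjusted p = 0.21). Slc1a2 (-0.00 ± 0.06) and Gjb6 (-0.16 ± 0.10) had negative fold changes and were not called either. Of 6 sensory ganglion markers tested 2 rose, Avil and P2rx3, summing over the list to 26.3 to 37.7 TPM in ETAQ/+ and 11.5 to 15.9 TPM in WT. Of 6 pan-neuronal markers 1 fell, Stmn2 (-0.30 ± 0.03, adjusted p = 1.68e-05), and 4 had an unadjusted p under 0.05 in edgeR, all with negative fold changes. DESeq2 called 3 pan-neuronal markers (Snap25, Stmn2 and Tubb3) and 2 astrocyte markers (Gfap and Slc1a3), and limma-voom called Stmn2 and Slc1a3. No call was made in edgeR among 7 oligodendrocyte markers (2 at an unadjusted p under 0.05), 6 microglia markers (1), or the endothelial, Schwann cell, fibroblast, red cell, skeletal muscle and neutrophil markers (0 each); DESeq2 called 1 oligodendrocyte marker, Cldn11, and limma-voom none. The edgeR counts stand beside 1.92% of all genes called and 10.9% at an unadjusted p under 0.05. No such share is given here for DESeq2 or limma-voom, so nothing is read from how many markers they called. The part of these cell types in the Gfra1 difference was not tested.

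Among the family's other ligands and receptors, Gdf15 counts were higher in ETAQ/+ cords. Gdf15, a stress cytokine whose known receptor complex pairs GFRAL with RET, had 9 to 25 counts per library in ETAQ/+ (100 in all) and 0 to 3 in WT (8 in all). No ETAQ/+ library overlapped a WT library, and the fitted log2 fold change was 3.61 ± 0.49 (adjusted p = 0.000651, edgeR). With so few WT counts, Gdf15 passed the filter on low counts only through the ETAQ/+ libraries, where it is high. Its p-value and lack of overlap are therefore given as description only. Gdf15 was the 1 call of 4 genes tested in a list of 6, against 1.92% of all genes called in edgeR. Because of how Gdf15 passed the filter, nothing is read from that count about the list. The uncalled Ncam1, an alternative GDNF receptor gene, was at 0.09 ± 0.03 (adjusted p = 0.286), and Sorl1, a sorting receptor gene, at -0.06 ± 0.04 (0.654). Pspn, the persephin gene, summed to 7 counts in ETAQ/+ and to 7 in WT and was not tested.

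Gfral, the GDF15 receptor gene, failed the filter and was singled out after its values were seen. It had 10, 3, 4, 4, 6 and 3 counts in ETAQ/+ mice 1, 5, 6, 8, 9 and 11, against 0, 2, 1, 0, 1 and 0 counts in WT mice 2, 3, 4, 7, 10 and 12. Each ETAQ/+ library thus held more than any WT library, with 30 counts in all ETAQ/+ and 4 in all WT libraries. Without the filter the fit gave 2.73 ± 0.67 (adjusted p = 0.0489, edgeR), but the call held in only 1 of 12 fits that left out a mouse (adjusted p 0.0158 to 0.130).

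No gene in the lists downstream of RET was called. Of 32 adaptors and signalling genes 0 were called in edgeR, DESeq2 or limma-voom, with 3 at an unadjusted p under 0.05 in edgeR and a median log2 fold change of -0.00. The smallest p values belonged to Src, a kinase recruited by RET, at 0.09 ± 0.03 (adjusted p = 0.296), and Gab2, a docking protein gene, at -0.10 ± 0.04 (adjusted p = 0.368). Of 6 transcription factors and targets that respond to GDNF or to growth factor signalling, 0 were called by any of the 3 tools and 0 had an unadjusted p under 0.05 in edgeR. Etv1 was at -0.12 ± 0.07 (adjusted p = 0.602) and Dusp6, a phosphatase induced by ERK signalling, at -0.09 ± 0.06 (0.633). Over all genes edgeR called 1.92%, and 10.9% had an unadjusted p under 0.05, so nothing is read from the counts of either list.

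In the CNTF and LIF cytokine family 0 of 10 tested genes of 12 were called by any of the 3 tools, and 0 had an unadjusted p under 0.05 in edgeR. The shares over all genes in edgeR were 1.92% called and 10.9% at that unadjusted threshold. Il6st, the gp130 subunit that completes the CNTF receptor, was at 199 ± 4.50 CPM in ETAQ/+ and 199 ± 8.78 CPM in WT (-0.00 ± 0.03, interval -0.07 to 0.06). Clcf1, which encodes another CNTFR ligand, was at 0.23 ± 0.12 (adjusted p = 0.519). Cntf was at 7.69 ± 1.48 CPM in ETAQ/+ and 6.69 ± 2.10 CPM in WT (0.25 ± 0.15, adjusted p = 0.620) and was higher in mice 1 to 6 than in mice 7 to 12 (0.56 ± 0.12, adjusted p = 0.0120). The Cntf value is uncertain, since 77.5% of its 75-base sequences also occur in transcripts of other genes and it overlaps Zfp91 on the same strand.

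Of 13 JAK-STAT genes 1 fell and 0 rose, against 1.34% of all genes called lower and 0.582% called higher in edgeR. Nothing is read from 1 call about the pathway. Jak1, a kinase that gp130 receptors use, was at 184, 195 and 204 CPM (lowest, median and highest) in ETAQ/+, against 207, 218 and 227 CPM in WT, without overlap. The log2 fold change was -0.16 ± 0.03 (adjusted p = 0.0155, edgeR). The call was lost without ETAQ/+ mouse 6 (adjusted p = 0.0512) or without WT mouse 12 (0.0518) and on TPM (0.624, or 0.384 with mouse set added). Socs3, an inhibitor of this pathway, was at 1.29 ± 0.141 CPM in ETAQ/+ and 1.66 ± 0.365 CPM in WT (-0.36 ± 0.17, adjusted p = 0.453), and Stat3 at -0.06 ± 0.03 (0.602).

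**Figure D5:**
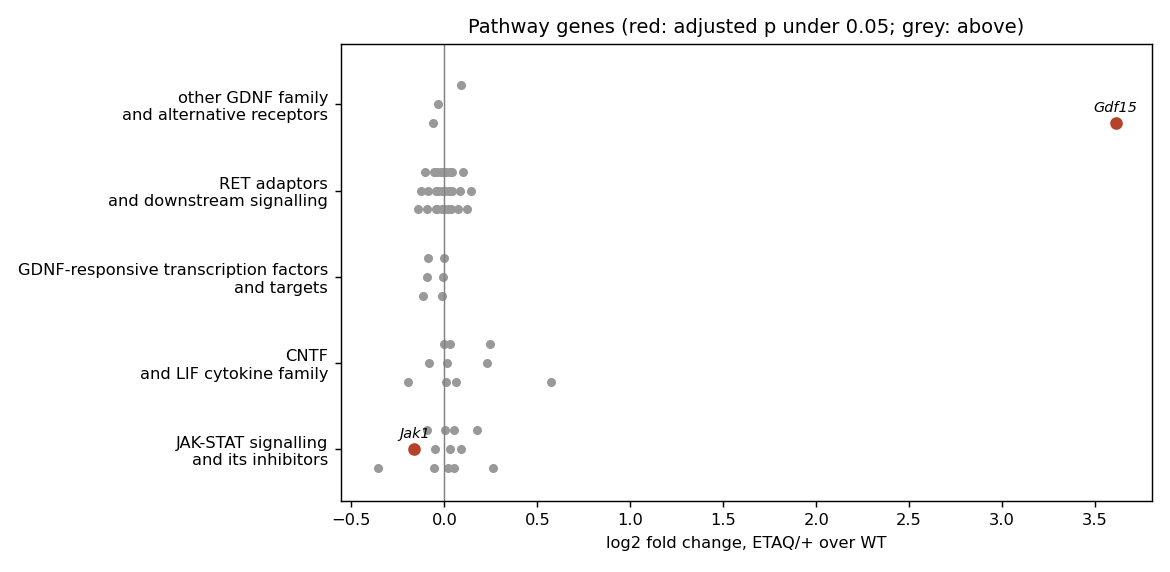
Log2 fold change of ETAQ/+ over WT for every tested gene of the 5 pathway lists, one point per gene, with called genes in red and the others in grey. Gdf15 at 3.61 and Jak1 at -0.16 are the 2 called genes. The Gdf15 call is description only, since it passed the filter through the ETAQ/+ libraries. The medians of the other 3 lists lie at -0.00, -0.05 and 0.02.

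How the genes vary together from mouse to mouse was described after removing genotype and sex, over 12 mice that share libraries and mouse sets. Among the 36 pairs of the 9 genes that passed the filter, which leaves out Gfra3, the highest positive value was for Gfra2 and Nrtn (Pearson r = 0.735). Gfra1 and Gdnf followed (r = 0.634). Both pairs were picked as the highest of 36, and no r was tested. Gdnf had only 4 to 12 counts per library, so counting error weighs on its values. With mouse set also removed, Gfra1 and Gdnf were at 0.575, Gfra1 and Cntfr at 0.563 (0.0386 before) and Artn and Cntfr at 0.481, all above Gfra2 and Nrtn at 0.470. Cntfr and Ret ran opposite (r = -0.744, and -0.712 with set removed). Among 14860 candidate genes those most like Gfra1 were Npy5r (r = 0.926), Zswim8 (0.919), Zscan2 (0.906), 6430548M08Rik (0.899) and Rims4 (0.883), and none of these 5 was called for genotype (adjusted p 0.632 to 0.964, edgeR). Mouse set was not removed here, and all 5, like Gfra1, had a lower fitted level in mice 1 to 6 (log2 differences -0.24 to -0.08). Over the 12 mice with nothing removed, r with Gfra1 was 0.0264 for Zswim8 and at most 0.543, for Npy5r. These 5 genes were picked as the highest of 14860, and whether such values arise by chance was not tested.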

How the data were processed

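RNA was purified from TRIzol lysates, polyA-selected and sequenced as 75 bp read pairs, per the labels' protocols, which name both a stranded and a HyperPrep KAPA kit without assigning libraries. Bowtie2 2.2.0 and RSEM 1.2.12 were used, per the submitters' processing notes. Build, annotation and strand setting: not given in the sources used here. Per the file headers, the deposited tables give expected counts (15.4% of values not whole), TPM and FPKM; FPKM was not used.

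Expected counts were rounded and tested in R 4.3.3 with edgeR 4.0.16 (filterByExpr over the 4 genotype-by-sex groups, TMM factors 0.975 to 1.02, robust quasi-likelihood test, sex as covariate). The 17189 genes left were adjusted together (Benjamini-Hochberg; threshold 0.05). The SE is the log2 fold change over the square root of F. Effects within sexes and mouse sets came from fits of all 12 libraries. The fits were tested on simulated counts with an assumed spread. Of genes given a 1.2-fold change, 26% were called for genotype, 8.16% in females, 6.12% in males and 0% in either mouse set. At a 2-fold change 93.9% were called for genotype. False calls made up 5.33% of the genotype calls and 7.64% of those in females. Small changes can thus go uncalled, most of all within a sex or mouse set. No 2 libraries were identical; p-values measure the spread between these mice.

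Alternatives were RLE and upper-quartile scaling, other filters, DESeq2 1.42.0, limma 3.58.1 (voom, and log2(TPM + 0.1) computed from the deposited TPM for genes with a mean of at least 0.1 TPM), sex left out, mouse set added and each mouse left out. TPM with mouse set was added after seeing the data. Positions and shared 75-base sequences came from GENCODE M21 (GRCm38). The text names the 10 genes, called genes of each list, and the 2 uncalled pathway genes with the smallest p. The genes and lists were chosen with earlier results of these data known.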

Additional observations from a re-analysis of the deposited data

Results flagged for a closer look

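Of 24 groups of 6 mice checked, 1 held a value far from the rest, where chance alone gives about 1 in 20. Ret was at 121 CPM in ETAQ/+ mouse 5, against 129 CPM in the next lowest ETAQ/+ mouse. That library also had the lowest total of the 12, at 23595944 expected counts.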

How the results depend on the processing

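The number of genes called for genotype stayed at 1 under RLE or upper-quartile scaling, both other filters, DESeq2, limma-voom, sex left out, mouse set added and each mouse left out, and it was 0 on log2(TPM + 0.1), with or without mouse set. In mice 1 to 6 it was 1, not 0, with no filter, and 0 to 1 when each mouse was left out (1 without WT mouse 2). In mice 7 to 12 it was 0 to 1, with 0 without ETAQ/+ mouse 8. The sign of Stat3 turned on TPM (0.0075, and 0.0075 with mouse set). Gdnf turned without WT mouse 2 (-0.11), ETAQ/+ mouse 9 (-0.05), ETAQ/+ mouse 11 (-0.04) or WT mouse 12 (-0.08), within a range of -0.11 to 0.19, and Nrtn without ETAQ/+ mouse 11 (-0.23, range -0.23 to 0.21). On TPM the Gars and Slc1a3 calls were also lost (adjusted p 0.0883 and 0.0545, limma; Gars 0.0792 with mouse set). The causes were not tested. The filter of at least 1 CPM in 6 libraries removed Gdnf, Nrtn, Artn and Gdf15, which have no value there. No paired analysis was possible because each mouse number occurs once. Depth limits Gfra3 and the 3 ligand genes most.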
